A study of Mus musculus with 4 samples.

Results

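Kit, its ligand gene Kitl and 8 genes that mark mast cells were examined in the bladders of male mice with an obstructed outlet. The members were taken by gene symbol, and 9 of the 10 had a probe, carried by 12 of the 46657 probes on the array. The genes measured were Kit, Kitl, Cpa3, Cma1, Mcpt4, Tpsb2, Fcer1a, Ms4a2 and Hdc, of 15366 named genes in all, while the tryptase gene Tpsab1 was not analysed here. Probes were chosen by brightness, the brightest per gene by its average on all 4 arrays being kept, so that brightness is no finding. The list was drawn up with earlier results of these data known.

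Total RNA of whole bladder was labelled with biotin and read on Illumina bead arrays. The 2 obstructed arrays are from male mice 14 days after partial bladder outlet obstruction, a narrowing of the urethra that the bladder muscle must work against. The 2 sham arrays are from male mice that had the sham operation, for which the labels give no day. All animals had a normal diet, and the labels give no strain, age or genotype and do not say whether an array carried the RNA of a single mouse, so a p-value here covers array-to-array scatter that could be technical.

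Kit encodes a receptor tyrosine kinase for stem cell factor, the product of Kitl. Mast cells need this signal to survive, and melanocytes, blood progenitors and the pacemaker interstitial cells of gut muscle also carry the receptor. In mouse connective tissue, mast cells store carboxypeptidase A3 (Cpa3), the chymases encoded by Cma1 and Mcpt4 and tryptases (Tpsb2 and Tpsab1) in granules beside histamine, which the enzyme encoded by Hdc makes. The high-affinity IgE receptor, whose ligand-binding alpha chain is encoded by Fcer1a and whose beta chain by Ms4a2, triggers their release.

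All values are given as deposited and were taken as log2 intensities, and the 4 arrays share a median over all probes of 5.80. No detection p-values were used, so this median serves as the yardstick for a dim gene. Pearson's r over all probes was 0.969 between the obstructed arrays and 0.989 between the sham arrays. Obstructed replicate 2 had the lowest correlations with the sham arrays, at 0.961 and 0.962, against 0.982 and 0.981 for obstructed replicate 1. A list of 14 secretory genes of the male accessory glands lay above the sham mean by a median of 2.48 and 8.64 in obstructed replicates 1 and 2, and its summed linear intensity was 25172 and 302829 in the obstructed arrays, against 8309 and 737 in the sham arrays. The urothelial list, which marks the bladder lining, had a median difference of -0.03, and Upk2 and Krt7 lay at 13.78 or more in all 4 arrays.

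Kit was lower in both obstructed arrays, while 4 granule protease genes were high in obstructed replicate 1 and not in obstructed replicate 2. No member passed the test in either direction (limma, Benjamini-Hochberg over all genes, called below 0.05). Of the 15366 genes 4 rose and 4 fell, which is 0.026% in each direction and 0.0521% in all. At an unadjusted p below 0.05, Kit was the 1 member that was lower, against 5.09% of all genes, and 0 members were higher, against 3.05%.

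Kit measured 6.84 and 6.47 in obstructed replicates 1 and 2, against 8.75 and 8.59 in sham replicates 1 and 2 (log2 intensity). These values rest on probe 7040095, the only probe with its symbol. The groups did not overlap, and all 4 values lay above the median of all probes. The means were 6.65 ± 0.26 in obstructed and 8.67 ± 0.12 in sham bladders (SD, n = 2 each). The log2 difference was -2.02 (SE 0.21, 95% interval -2.52 to -1.51), which is 4.04-fold lower in linear intensity, with an unadjusted p of 6.21e-05 and an adjusted p of 0.0776 by limma. By the size of the difference Kit stood at place 20 from the lowest of all genes, and by p at place 11. In whole bladder RNA, fewer cells that express a gene and less RNA per cell cannot be told apart. A difference in the tissue taken cannot be told apart from these either. The accessory gland genes were higher in the obstructed arrays, and the part of such RNA in the value of Kit was not tested. Read against the sham mean, Kit was at -1.83 and -2.20 in obstructed replicates 1 and 2, a 3.56-fold and a 4.59-fold lower intensity. It was the 1 member at least 1 log2 unit below both sham arrays in either obstructed array, as were 0.514% of all genes on the array of replicate 1 and 1.82% on that of replicate 2.

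Kit just missed the threshold, and the call depended on how the spread was modelled. With a robust trend its limma adjusted p was 0.0447, with weights per array 0.0443, and over the other alternatives that used all 4 arrays it ran from 0.0506 to 0.660. When a single obstructed array was set against the sham pair, the log2 difference was -1.83 for replicate 1 and -2.20 for replicate 2. Without sham replicate 1 it was -1.93 and without sham replicate 2 it was -2.10. Each such fit leaves a group with a single array, which has no spread of its own, so no p-value is given for it. The direction was lower in each of these fits.

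Kitl, the gene of the ligand, measured 6.31 and 5.88 in the obstructed arrays, against 5.92 and 6.26 in the sham arrays (probe 6220300). The groups overlapped fully, with a log2 difference of 0.00 (SE 0.20, 95% interval -0.49 to 0.49, limma adjusted p = 0.999). These values were close to the median of all probes. A dimmer probe of Kitl, 2120047, measured 5.08 and 5.07 in the obstructed arrays, against 4.29 and 5.04 in the sham arrays, all below that median.

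**Figure D1:**
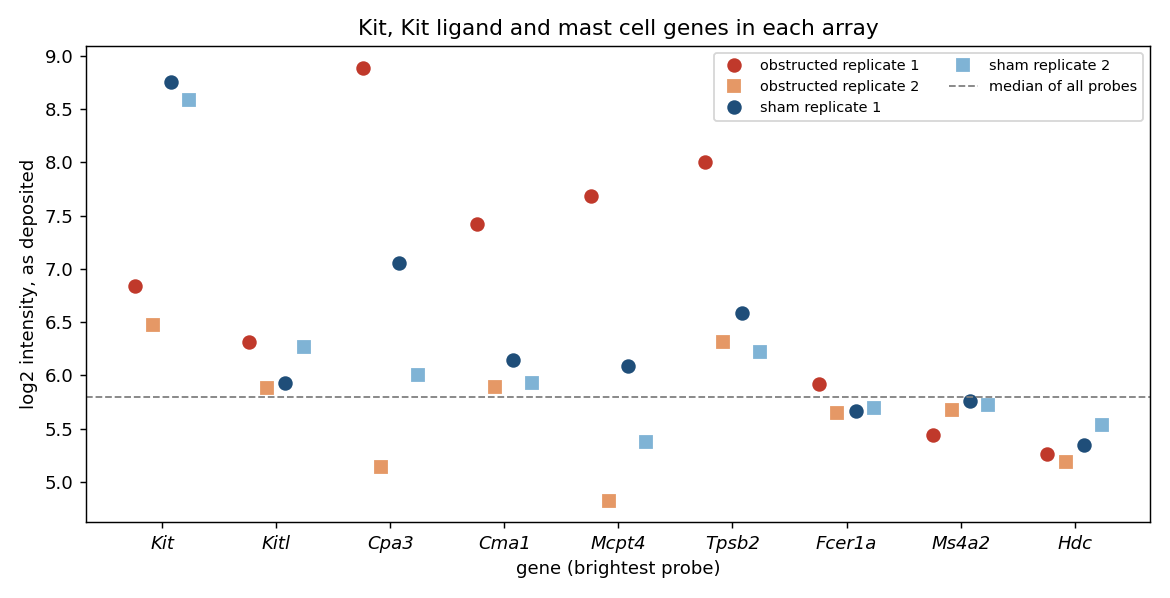
Log2 intensity (vertical axis) of the brightest probe of each of the 9 measured genes in each array, obstructed arrays in red and orange and sham arrays in dark and light blue; the dashed line is the median of all probes, 5.80. Kit lies between 6.47 and 6.84 in the obstructed arrays, below both sham arrays, while Cpa3, Cma1, Mcpt4 and Tpsb2 are highest in obstructed replicate 1.

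The granule protease genes Cpa3, Mcpt4, Cma1 and Tpsb2 were the members that differed most between arrays of the same group. Cpa3, the carboxypeptidase of mast cell granules, measured 8.89 and 5.14 in obstructed replicates 1 and 2, against 7.06 and 6.0 in sham replicates 1 and 2 (probe 610242). The obstructed arrays thus held both the highest and the lowest value of the 4. The lowest, 5.14, is under the all-probe median of 5.80, so no fold is given between them, and the sham arrays, both above that median, differed 2.08-fold. Over all genes, 0.156% had obstructed arrays at least as far apart as those of Cpa3, and 0.176% had sham arrays at least as far apart. The difference of the group means was 0.49 (SE 1.13, 95% interval -2.28 to 3.25, limma adjusted p = 0.946).

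Mcpt4, a chymase of connective tissue mast cells, measured 7.68 and 4.82 in the obstructed arrays, against 6.08 and 5.37 in the sham arrays (probe 2510736). As with Cpa3, obstructed replicate 1 was the highest and obstructed replicate 2 the lowest, and that value and the one of sham replicate 2 were under the all-probe median, so no fold is given. Cma1, the other chymase, measured 7.42 and 5.89 in the obstructed arrays, against 6.15 and 5.93 in the sham arrays (probe 5080070). For Cma1 obstructed replicate 1 stood alone, and the other arrays lay between 5.89 and 6.15. Tpsb2, a tryptase, measured 8.01 and 6.31 in the obstructed arrays, against 6.59 and 6.22 in the sham arrays (probe 7570544). Here too obstructed replicate 1 was the highest, while obstructed replicate 2 lay between the sham arrays. The log2 differences of the group means were 0.52 (SE 0.86) for Mcpt4, 0.62 (SE 0.46) for Cma1 and 0.75 (SE 0.52) for Tpsb2, with limma adjusted p-values of 0.911, 0.772 and 0.754. With the probes of a gene averaged the difference of Tpsb2 was 0.40, and with a floor at an intensity of 50 that of Cpa3 was 0.74 and that of Mcpt4 0.80. Chymase and tryptase genes have near paralogs, and whether these probes also bind transcripts of a paralog, such as Tpsab1, was not tested.

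Each obstructed array was also read alone. In obstructed replicate 1 these 4 genes lay 2.36 (Cpa3), 1.95 (Mcpt4), 1.60 (Tpsb2) and 1.38 (Cma1) above the sham mean, at places 15, 21, 44 and 62 of 15366 genes from the top. In obstructed replicate 2 they lay at -1.39, -0.91, -0.10 and -0.14. All 4 were at least 1 log2 unit above both sham arrays in obstructed replicate 1, as were 0.573% of all genes, and 0 members were so in obstructed replicate 2, as were 1.5% of all genes. The values of Cpa3 and Mcpt4 in obstructed replicate 2, 5.14 and 4.82, are in the dim range under the all-probe median, where the size of a difference is uncertain. A fit of a single obstructed array against the sham pair takes that array to scatter as the sham pair does. Such a fit says nothing of the spread between obstructed bladders, so no call is drawn from it. Cpa3, Mcpt4 and Cma1 shared the order obstructed replicate 1, sham replicate 1, sham replicate 2, obstructed replicate 2 from high to low, an order that 6.56% of all genes had.

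The second probes of these genes were dimmer. That of Cpa3, 6380102, measured 6.66 and 5.73 in the obstructed arrays, against 5.75 and 5.79 in the sham arrays, so that obstructed replicate 1 was again the highest, 0.90 above the sham mean. That of Tpsb2, 2320577, stayed under the all-probe median on each array, with 5.42 and 5.12 in the obstructed arrays, against 5.27 and 5.19 in the sham arrays.

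**Figure D2:**
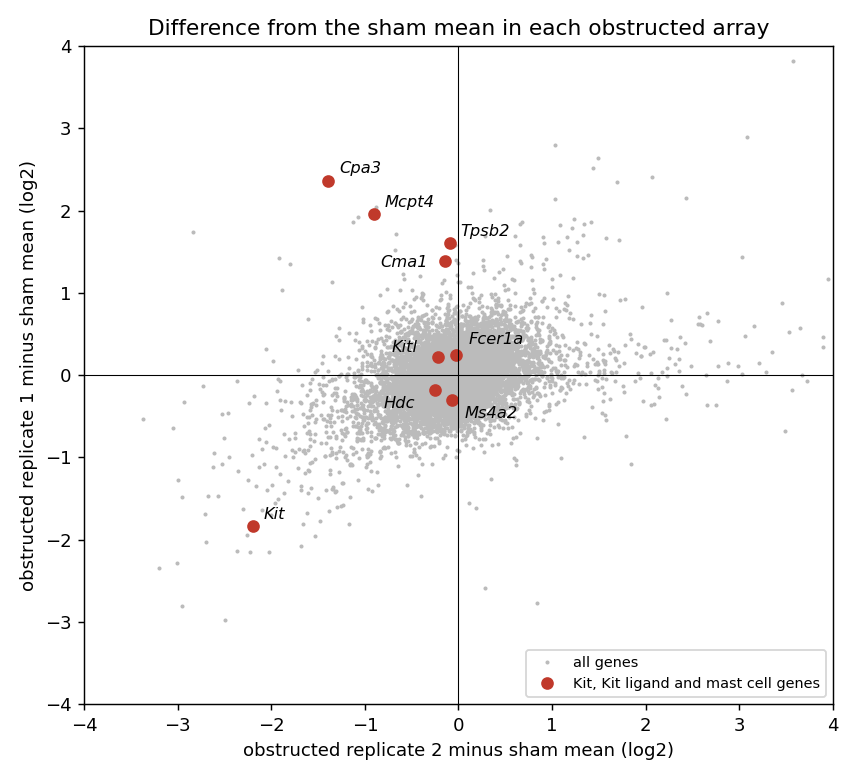
Difference from the sham mean (log2) of obstructed replicate 1 (vertical axis) against obstructed replicate 2 (horizontal axis); grey points are all genes, red points the 9 measured genes, and 32 genes lie beyond the axes at 4 log2 units. Both differences rest on the same sham arrays. Kit lies at -1.83 and -2.20, and Cpa3 and Mcpt4 lie above 0 in obstructed replicate 1 and below 0 in obstructed replicate 2.

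The promoters of 3 proteases that moved together between arrays and of Kit, which did not follow them, are shown to let their sequences be compared. They are RefSeq sequences of build GRCm38.p6, each running from 250 bases before the transcript start through its first 50 bases, 5′ to 3′ along the gene. Capitals mark matches on either strand to NGATAN with A or T as its first base and A or G as its last, the letters that GATA factors are known to bind.
Cpa3, chr3:20242132-20242431, minus strand: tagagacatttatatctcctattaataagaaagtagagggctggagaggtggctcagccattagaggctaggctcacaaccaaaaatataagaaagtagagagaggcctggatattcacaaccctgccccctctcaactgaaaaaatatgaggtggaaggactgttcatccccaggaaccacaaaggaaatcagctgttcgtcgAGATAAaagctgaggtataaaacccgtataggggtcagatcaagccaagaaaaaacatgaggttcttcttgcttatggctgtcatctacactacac
Mcpt4, chr14:56062261-56062560, minus strand: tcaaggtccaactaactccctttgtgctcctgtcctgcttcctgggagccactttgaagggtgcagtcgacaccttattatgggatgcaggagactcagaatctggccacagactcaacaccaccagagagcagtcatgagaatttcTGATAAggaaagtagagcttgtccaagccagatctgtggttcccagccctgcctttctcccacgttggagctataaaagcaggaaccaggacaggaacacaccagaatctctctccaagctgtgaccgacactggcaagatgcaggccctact
Cma1, chr14:55944626-55944925, minus strand: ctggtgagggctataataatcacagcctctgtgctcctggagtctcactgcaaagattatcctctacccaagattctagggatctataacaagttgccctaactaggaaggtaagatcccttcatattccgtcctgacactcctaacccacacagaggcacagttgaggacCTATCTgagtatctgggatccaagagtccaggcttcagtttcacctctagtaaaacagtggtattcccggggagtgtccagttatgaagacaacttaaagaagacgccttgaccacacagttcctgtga
Kit, chr5:75574737-75575036, plus strand: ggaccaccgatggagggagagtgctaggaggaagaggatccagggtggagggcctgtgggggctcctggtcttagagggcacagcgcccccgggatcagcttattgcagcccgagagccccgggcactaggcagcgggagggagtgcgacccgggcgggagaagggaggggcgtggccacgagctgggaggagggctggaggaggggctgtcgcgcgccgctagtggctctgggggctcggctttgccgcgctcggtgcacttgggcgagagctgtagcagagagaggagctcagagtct
The matches begin 46 bases before the start in Cpa3 (AGATAA), 103 before it in Mcpt4 (TGATAA) and 79 before it in Cma1 (CTATCT, which is AGATAG on the other strand). The Kit window held 0 such matches, and a further Kit entry of the table, shifted by 4 bases, also held 0. Tpsb2 had no promoter entry. Among the 8 members with an entry, 6 held at least 1 match, Ms4a2 with 3 of them, and Kit and Kitl were those without. Fcer1a, Ms4a2 and Hdc held a match but did not share the array order of the 3 proteases. Of all 32851 promoters of this length, 29.8% held a match. The E-box letters CACNTG with A or G at the free base, which the mast cell factor MITF is known to bind, were searched on both strands and found in 1 of the 8 members, Fcer1a, and in 20.4% of all promoters. G and C made up 69.0% of the Kit window and 68.7% of the Kitl window, and between 41.0% and 51.7% of those of the other 6 members. A match is a run of letters and does not show that a factor binds there.

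The other mast cell members were dim. Fcer1a, the alpha chain of the IgE receptor, measured 5.92 and 5.65 in the obstructed arrays, against 5.66 and 5.69 in the sham arrays (probe 1050671, log2 difference 0.11, SE 0.14). Obstructed replicate 1 was the 1 array above the median of all probes. Ms4a2, its beta chain, measured 5.44 and 5.67 in the obstructed arrays, against 5.76 and 5.72 in the sham arrays (probe 2940594, -0.18, SE 0.14). Hdc, the histamine-forming enzyme, measured 5.26 and 5.19 in the obstructed arrays, against 5.35 and 5.54 in the sham arrays (probe 4150463, -0.22, SE 0.13). Both genes stayed under the all-probe median on each array, so little can be read from them. The limma adjusted p was 0.886 for Fcer1a, 0.771 for Ms4a2 and 0.712 for Hdc. Kit, Ms4a2 and Hdc were the members whose obstructed arrays both lay below both sham arrays, and 21.6% of all genes did so. None had both obstructed arrays above both sham arrays, as 17.6% of all genes had. Of the 9 markers given for mast cells, 8 were measured. A mean above the median of all probes was found for 5 of these (Kit, Tpsb2, Cpa3, Cma1 and Mcpt4), and not for the IgE receptor chains and Hdc. Kit, Tpsb2 and Cma1 lay above that median in all 4 arrays, Cpa3 in 3 and Mcpt4 in 2. The mean of Mcpt4, 5.99, rests on its value of 7.68 in obstructed replicate 1.

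Other granule proteases were mostly dim. Of 9 measured genes, 6 stayed under the all-probe median on each array, among them the basophil protease Prss34 at 5.35 and 5.52 in the obstructed arrays, against 5.40 and 5.49 in the sham arrays. None passed the test, 0 reached an unadjusted limma p below 0.05, and the list median was 0.05, beside -0.02 over all genes. The brightest, Ctss, a lysosomal protease of many leukocytes, measured 11.02 and 9.91 in the obstructed arrays, against 10.08 and 10.14 in the sham arrays. Ctsc, which activates granule proteases, differed by -0.05 and the transmembrane tryptase gene Tpsg1 by -0.05.

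Of 16 other receptors and surface proteins of mast cells, 0 passed and 0 reached an unadjusted limma p below 0.05, with a list median of 0.09. The lysosomal tetraspanin Cd63 differed by 0.20, the interleukin-3 receptor gene Il3ra by 0.41, Mrgprb2, a mouse mast cell receptor for basic peptides, by 0.15, and Cd200r3 by 0.25. Mrgprb2 measured 7.09 and 8.31 in the obstructed arrays, against 7.79 and 7.31 in the sham arrays, so that obstructed replicate 2 was the highest, opposite to Cpa3. Of 15 genes of mediator synthesis and granule storage, 0 passed and 0 reached that unadjusted p, with a median of 0.12. Srgn, the proteoglycan core of the granule, measured 10.52 and 9.73 in the obstructed arrays, against 10.63 and 10.42 in the sham arrays. Vamp8, Stxbp2 and Rab27b, which serve granule release, differed by 0.07, 0.28 and 0.12. The highest difference in this list, named after its values were seen, was that of the prostaglandin synthase Ptgs2, at 7.34 and 11.51 in the obstructed arrays, against 8.03 and 8.0 in the sham arrays.

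Among 12 transcription factors of mast cells, 0 passed and the median was -0.26. At an unadjusted limma p below 0.05, 0 were higher and 5 lower (Mitf, Spi1, Stat5b, Meis2 and Bhlhe40), against 3.05% and 5.09% of all genes. Both obstructed arrays lay below both sham arrays in 6 of the 12, where 21.6% of all genes did. Gata2 differed by 0.23 and Lmo2 by 0.29, while Bhlhe40 and Meis2 differed by -0.83 (SE 0.23) and -0.65 (SE 0.21), with limma adjusted p-values of 0.448 and 0.505. Mitf, named after its values were seen, measured 8.70 and 8.67 in the obstructed arrays, against 9.20 and 9.13 in the sham arrays. Of 16 measured genes of IgE receptor signalling, 0 passed, also at that unadjusted p, and the median was 0.04, with the kinase genes Prkcb at 0.00 and Prkcd at 0.42 and the calcium entry genes Stim1 and Orai1 at -0.07 and -0.35. In obstructed replicate 1, 13 of the 16 lay above both sham arrays, where 36.4% of all genes did.

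Downstream of Kit, 30 signalling genes were measured, of which 0 passed. The median was -0.12, beside -0.02 over all genes. Both obstructed arrays lay below both sham arrays in 9 of the 30, where 21.6% of all genes did. They lay above both in 4, where 17.6% of all genes did. At an unadjusted limma p below 0.05, 2 were higher (Stat3 and the adaptor Sh2b2) and 2 lower (Jak2 and Stat5b), against 3.05% and 5.09% of all genes. The kinase gene Akt2 differed by -0.23 and Map2k1 by -0.39, the adaptor Grb7 by 0.26 and the transcription factor Stat3 by 0.61 (SE 0.22, limma adjusted p = 0.567). Stat3 measured 11.34 and 11.06 in the obstructed arrays, against 10.42 and 10.76 in the sham arrays, with no overlap. Of 7 proteases that can shed surface proteins such as Kit ligand, 0 passed and the median was -0.02. At that unadjusted p, Adam19 was higher and Mmp9 lower, against 3.05% and 5.09% of all genes. Adam9, Adam10 and Adam17 differed by 0.01, -0.27 and 0.10, while Mmp9 measured 7.74 and 7.41 in the obstructed arrays, against 9.21 and 8.97 in the sham arrays (log2 difference -1.51, SE 0.22, limma adjusted p = 0.149).

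Of 14 cytokines and chemokines that act on mast cells or draw them, 0 passed, with a median of -0.10. At an unadjusted limma p below 0.05, 0 were higher and 2 lower (Ccl11 and Cxcl12), against 3.05% and 5.09% of all genes. The chemokine gene Ccl11 measured 7.62 and 6.16 in the obstructed arrays, against 8.61 and 8.63 in the sham arrays (log2 difference -1.72, SE 0.45, limma adjusted p = 0.427). Cxcl12 measured 9.88 and 9.37 in the obstructed arrays, against 10.30 and 10.90 in the sham arrays (-0.97, SE 0.30, limma adjusted p = 0.497). In both genes the groups did not overlap. The alarmin Il33 differed by 0.36 and Tslp by -0.24. Of 8 histamine receptors and breakdown enzymes, 5 stayed under the all-probe median on each array and 0 passed. At an unadjusted limma p below 0.05, Aldh1b1 was the 1 gene of these that was lower, against 5.09% of all genes. Aldh1b1, an aldehyde dehydrogenase, differed by -1.23 (SE 0.28, limma adjusted p = 0.335), while Aoc1, which degrades histamine, differed by -0.03, Slc29a4 by -0.22 and Hrh3 by -0.09.

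Markers of interstitial cells, PDGFRA-positive interstitial cells and melanocytes were measured beside Kit. Of 6 measured interstitial cell genes 0 passed, also at an unadjusted limma p below 0.05, and the median was 0.01. The chloride channel Ano1, which marks gut interstitial cells together with Kit, measured 9.58 and 10.05 in the obstructed arrays, against 9.64 and 9.75 in the sham arrays. The transcription factor Etv1 differed by 0.40, the connexin Gja1 by -0.59 and the calcium channel Cacna1h by -0.36. These 4 differences lay outside the interval of Kit, -2.52 to -1.51, and a difference between them and Kit was not tested. Of 7 genes of PDGFRA-positive interstitial cells 0 passed, and the median was -0.29. P2ry14 alone reached that unadjusted p, as higher, against 3.05% of all genes. Pdgfra differed by -0.30, Cd34 by -0.33, Foxf2 by -0.29 and P2ry14 by 1.04 (SE 0.23, limma adjusted p = 0.323). Melanocyte genes were dim, 3 of 6 staying under the all-probe median on each array, and their median was 0.10. Tyrp1 differed by 0.07, Pmel by 0.26, Slc45a2 by 0.14 and Tyr by -0.26.

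Leukocyte genes were also higher in obstructed replicate 1 than in obstructed replicate 2. Of 8 genes common to leukocytes, all measured, 8 lay above both sham arrays in obstructed replicate 1, as did 36.4% of all genes, and 7 below both in obstructed replicate 2, as did 41.7%. Their medians against the sham mean were 0.43 and -0.60, and their summed linear intensity was 7477 and 4683 in the obstructed arrays, against 4930 and 5067 in the sham arrays. The 1 gene not below both sham arrays in obstructed replicate 2 was Cd52, named after its values were seen. It supplied 177 and 1908 of these sums in the obstructed arrays, against 120 and 137 in the sham arrays (log2 difference 2.18, SE 1.01, limma adjusted p = 0.647). The cells from which the Cd52 signal came were not tested. Laptm5 measured 12.15 and 10.76 in the obstructed arrays, against 11.56 and 11.64 in the sham arrays, and Coro1a, Cd53 and Tyrobp lay 1.81, 1.32 and 1.27 higher in obstructed replicate 1 than in obstructed replicate 2. In 7 of the 8 obstructed replicate 1 lay above and obstructed replicate 2 below both sham arrays, as in 5 of the 9 measured members (Cpa3, Mcpt4, Cma1, Kitl and Fcer1a) and 11.6% of all genes. In obstructed replicate 2, Cma1, Kitl and Fcer1a lay only slightly below the lower sham array. Their values were 5.89 against 5.93, 5.88 against 5.92 and 5.65 against 5.66. The part of other leukocytes in the protease values was not tested. Nor was the part of accessory gland RNA in the protease and leukocyte values.

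The 10 macrophage genes had medians of 0.19 and -1.19 in obstructed replicates 1 and 2, and all 10 lay below both sham arrays on the array of replicate 2, where 41.7% of all genes did. Adgre1, C1qb, Lyz2 and C1qc differed between the groups by -0.24, 0.29, -0.35 and -0.34. The 9 T and NK cell genes had medians of 0.22 and -0.28, with Thy1 at 0.43, Cd3e at 0.18, Cd3d at 0.18 and Nkg7 at -0.34. Basophil genes had medians of -0.08 and 0.15, neutrophil genes of -0.01 and 0.04, eosinophil genes of 0.13 and -0.15 and B cell genes of 0.01 and -0.06, in obstructed replicates 1 and 2. None of these genes passed the test. At an unadjusted limma p below 0.05, Cd163 and Timd4 of the macrophage list and Klrb1c of the T and NK cell list were lower, against 5.09% of all genes. At that p 0 genes of the leukocyte, basophil, neutrophil, eosinophil and B cell lists differed.

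Marker lists of fat, striated muscle, mesothelium and smooth muscle also had lower medians in the obstructed arrays, and their part in the value of Kit was not tested. The 11 measured adipocyte genes had medians of -1.0 and -0.87 in obstructed replicates 1 and 2, with both obstructed arrays below both sham arrays in 7 of them, where 21.6% of all genes did so, and their summed linear intensity was 5116 and 6245 in the obstructed arrays, against 13468 and 10199 in the sham arrays. The 11 striated muscle genes had medians of -0.90 and -1.98, with Tcap, a sarcomere protein, the 1 gene of these lists that fell (log2 difference -2.19, limma adjusted p = 0.0349). The 6 mesothelial genes had medians of -0.25 and -1.03, and the 11 smooth muscle genes of -0.14 and -0.93. Both obstructed arrays lay below both sham arrays in 8 of the 11 striated muscle, 4 of the 6 mesothelial and 5 of the 11 smooth muscle genes. The adipocyte list also differed within the sham group, by a median of 0.55 between sham replicates 1 and 2, where Kit differed by 0.17.

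**Figure D3:**
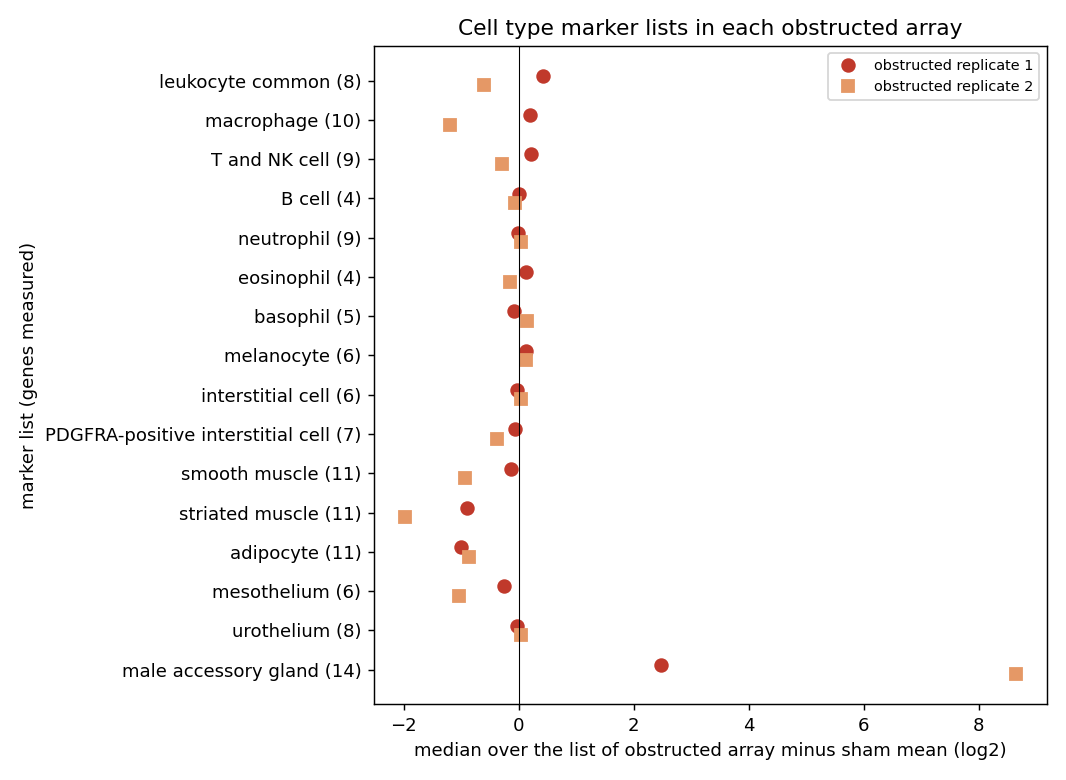
Median difference from the sham mean (log2, horizontal axis) of each cell type marker list in obstructed replicate 1 (red circles) and obstructed replicate 2 (orange squares), with the number of genes measured in brackets. Leukocyte, macrophage and T cell lists lie above 0 in obstructed replicate 1 and below 0 in obstructed replicate 2, and the accessory gland list lies at 2.48 and 8.64.

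The genes nearest to Kit in pattern were found among 10422 genes outside the list, with a mean above the median of all probes and uncharacterised genes left out, by the root mean square distance between log2 values centred on each gene's mean over the 4 arrays. They were Npy, which encodes neuropeptide Y (distance 0.10), Mamdc2 (0.12), Tcap (0.14), Dbp, a clock output factor (0.14), and Gbp5 (0.15). Npy measured 6.08 and 5.62 in the obstructed arrays, against 7.71 and 7.73 in the sham arrays (log2 difference -1.87, limma adjusted p = 0.0776). Of these 5, Tcap and Dbp fell, Dbp with a log2 difference of -2.25 and a limma adjusted p of 0.0349. No mast cell member was near to Kit: the nearest, the dim Hdc, stood at a distance of 0.91, and Cpa3 at 1.76. The distance takes in the size of a difference, so a gene that varies little lies far from Kit whatever its direction. The dim Hdc and Ms4a2 also had both obstructed arrays below both sham arrays.

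Nearest to Cpa3 was Mcpt4, at a distance of 0.34, closer than any gene outside the list. Tpsb2 and Cma1 stood at 0.78 and 0.84, places 12 and 15 among the genes outside the list. The 5 nearest outside it were H2-Ab1, a class II antigen-presenting chain (0.41), Apod, a lipocalin (0.42), Rbm14 (0.44), Ear10 (0.53) and Lyz1, a lysozyme (0.58). H2-Ab1 measured 11.65 and 8.67 in the obstructed arrays, against 9.90 and 9.67 in the sham arrays. With 4 arrays, such a distance describes these arrays alone.

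**Figure D4:**
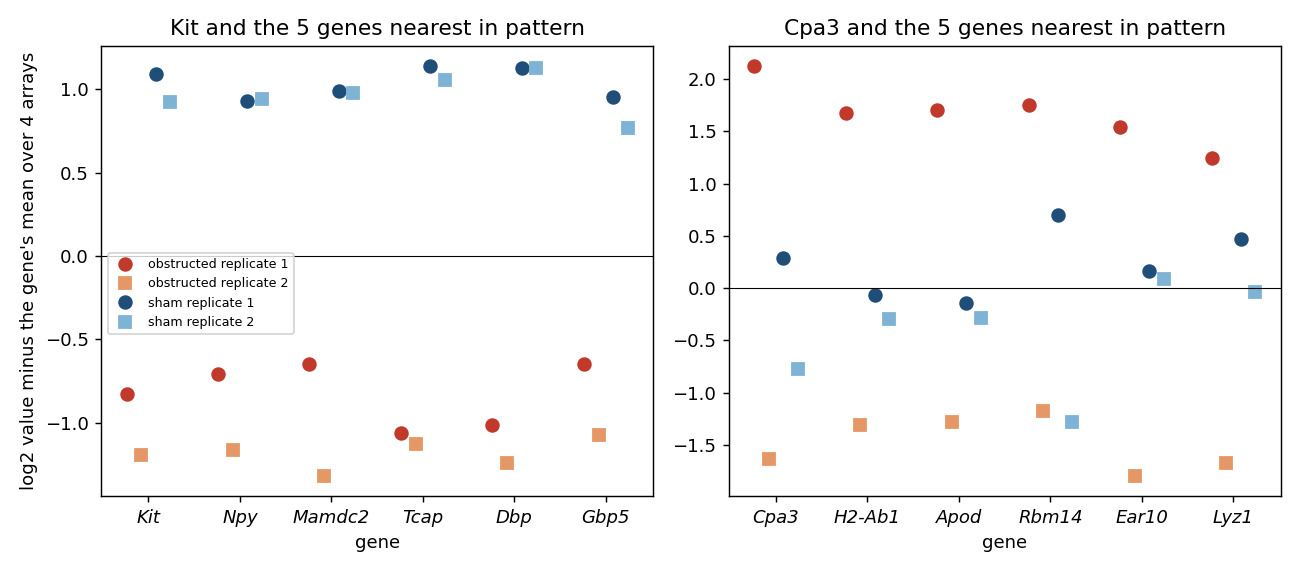
Log2 value minus the gene's own mean over the 4 arrays (vertical axis) for Kit and the 5 genes nearest to it in pattern (left) and for Cpa3 and its 5 nearest (right); colours mark the arrays. Kit and its neighbours separate obstructed from sham arrays, while Cpa3 and its neighbours are highest in obstructed replicate 1, and all of them except Rbm14 are lowest in obstructed replicate 2.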

How the data were processed

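The authors deposited 1 value per probe and array for 46657 probes. Per the authors' deposited table these are log2 intensities, made by hybridising biotinylated cRNA per the labels' protocols and normalized between arrays before deposit, as their values between 4.14 and 15.63 show, neither headers nor labels naming a scale. The sorted columns agree to within 0.0252, as quantile normalization leaves them. The scanner software, the background correction and the genome build were not given in the sources used here. Of the probes, 22380 had 1 gene symbol in the platform annotation, 0 had several and 24277 had none. There were 0 unused columns.

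The brightest probe of each of 15366 genes, by its average on all arrays, was fitted in limma 3.58.1 under R 4.3.3 (lmFit, then eBayes with a mean-variance trend). The test was two-sided, adjusted by Benjamini-Hochberg over all genes and called below 0.05. Intervals are 95% intervals of this fit. The number of arrays, 2 per group, limits the precision. Tested on simulated data of obstructed against sham for 15366 genes, the fit called 28.2% of 2-fold and 88.8% of 4-fold changes, with 4.8 false calls among 121.8. The simulation planted 100 changed genes of each fold size and drew the same spread for both groups. In the data the obstructed arrays agreed less, at a Pearson's r of 0.969 against 0.989 for the sham arrays. The simulated shares may thus be too high for these data.

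The members, lists and alternatives were chosen with earlier results of these data known. Every measured member was named, and from each list the 4 genes with the highest mean and any gene called. The labels give no pairing, so the numbers were not taken as pairs. Same-numbered arrays deviated together with a correlation of 0.06 over probes, which with 2 pairs cannot decide whether they were paired. Python 3.11.15 and matplotlib 3.10.9 made the summaries and figures.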

Additional observations from a re-analysis of the deposited data

How the results depend on the processing

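Under the alternatives that used all 4 arrays, Kit had a log2 difference of -2.02 in each. It passed with a robust trend (limma adjusted p = 0.0447) and with weights per array (0.0443). Kit had a single probe with all values above the floor, so averaging probes or the floor could not change this difference. Changing the model of the spread could not change it either, so the equal values do not test its size. Other members moved by more than 1.5 times without a call: Tpsb2 to 0.40 (from 0.75) and Kitl to 0.20 (from 0.00) with probes averaged, and Cpa3 to 0.74 (from 0.49), Mcpt4 to 0.80 (from 0.52) and Ms4a2 to -0.083 (from -0.18) with the floor of 50. Without single arrays the difference of Kit ran from -2.20 to -1.83. The same range was -1.39 to 2.36 for Cpa3, -0.91 to 1.95 for Mcpt4, -0.14 to 1.38 for Cma1, -0.10 to 1.60 for Tpsb2, -0.031 to 0.24 for Fcer1a and -0.21 to 0.22 for Kitl, and the negative end was reached without obstructed replicate 1 in each of these 6 genes. Cpa3 was also lower without sham replicate 2 (-0.04) and Kitl without sham replicate 1 (-0.17). The cause was not tested. Hdc has no value with a floor of 50, which lies above all its arrays.

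Genes called higher and lower numbered 4 and 4. They were 0 and 0 with the floor of 50 (490 and 759 at an unadjusted limma p below 0.05) and with an unmoderated fit (463 and 598), 2 and 1 with dim genes left out, 0 and 1 with the replicate block (440 and 765), and 2 and 4 without a trend. A robust trend called 11 lower, weights per array 8 and single probes 7 probes. Without single arrays the counts ran from 0 to 519 higher and from 0 to 780 lower. With the replicate block the limma adjusted p of Kit was 0.162, and it changed no call of a member.

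Of the list medians, those moved by more than the spread between replicates were 0.00 with the floor for other granule proteases and for other mast cell receptors, 0.0738 with the floor and with single probes for mediator genes, -0.21 with the floor, -0.21 with probes averaged and -0.10 with single probes for mast cell transcription factors, -0.0565 with probes averaged and -0.0545 with single probes for Kit signalling, -0.00321 with probes averaged for melanocytes, -0.59 with the floor for adipocytes and -0.10 with single probes for urothelium. Without single arrays, the medians ran from 0.0503 to 0.11 for other granule proteases, -0.0414 to 0.0509 for other receptors, 0.0208 to 0.18 for mediator genes, -0.32 to -0.14 for transcription factors, -0.13 to -0.0184 for Kit signalling, -0.23 to 0.0569 for histamine genes, -0.29 to 0.0383 for shedding proteases, -0.077 to 0.18 for basophils, -0.12 to 0.0552 for interstitial cells, -0.37 to -0.0672 for PDGFRA-positive cells, 0.00656 to 0.15 for melanocytes, -1.19 to 0.19 for macrophages, -0.15 to 0.13 for eosinophils, -0.28 to 0.22 for T and NK cells, -1.17 to -0.65 for adipocytes, -1.98 to -0.90 for striated muscle, -0.93 to -0.14 for smooth muscle, -0.0261 to 0.0328 for urothelium, -1.03 to -0.25 for mesothelium and 2.48 to 8.64 for accessory glands. With 2 arrays per group and no detection p-values, the values of Fcer1a, Ms4a2 and Hdc cannot be told from background.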
